A study of Homo sapiens with 6 samples.

Results

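The promoters of 87 protein-coding genes changed sides of a rank threshold between ATAC-seq peak lists of HLF cells given DMSO and HLF cells given SNDX-5613 at 5 μM. HLF is an established human liver cancer cell line, and SNDX-5613 (revumenib) is an inhibitor of menin, given here against its solvent DMSO. Each group held 3 libraries from this line, and the labels gave 24 h of treatment and the same batch for all, while the methods of the study describe a longer exposure, so the duration is uncertain. The methods of the study describe a replicate as cells from a dish that was divided between treatment and control, and the labels do not say whether the replicate numbers mark these dishes.

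In each list, regions on chromosomes 1 to 22 were ranked by the -log10 p of their strongest summit, and the first 40000 were taken as the top regions. A gene had a top promoter region when such a region came within 1 kb of any of its annotated transcription start sites (TSSs). Of 19111 protein-coding genes, 75 (0.392%) had one in all 3 SNDX-5613 libraries and in none of the 3 DMSO libraries, and these are called entering promoters. The reverse was found for 12 genes (0.0628%), called leaving promoters. Members were thus chosen by their -log10 p ranks in the same contrast, so these values are given as a description and were not tested.

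ATAC-seq uses the Tn5 transposase, which inserts into DNA that is not wrapped tightly in nucleosomes, so a region of many insertions marks open chromatin. Promoters of active genes are usually open around the TSS, and many CpG-rich promoters are also open at low transcription. Menin is a scaffold subunit of the MLL1 and MLL2 methyltransferase complexes, which place H3K4 methylation at promoters, and menin inhibitors break its contact with MLL1. NF-Y is a trimeric factor that binds CCAAT boxes in promoters.

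Regions with a wide separation between groups show what an entering or a leaving promoter can look like in sequence. For the 4 entering genes with the widest rank gaps and the leaving genes ZBTB46 and C12orf40, up to 160 bases near the strongest summit that lie in no annotated UTR or coding exon are given in the direction of the gene (hg38). Capitals mark CCAAT or its reverse complement ATTGG.
C6orf118, chr6:165309606-165309765, minus strand: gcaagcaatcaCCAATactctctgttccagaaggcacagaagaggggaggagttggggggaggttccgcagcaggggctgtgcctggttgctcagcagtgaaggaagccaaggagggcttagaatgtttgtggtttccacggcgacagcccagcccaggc
KHDRBS2, chr6:62286226-62286385, minus strand: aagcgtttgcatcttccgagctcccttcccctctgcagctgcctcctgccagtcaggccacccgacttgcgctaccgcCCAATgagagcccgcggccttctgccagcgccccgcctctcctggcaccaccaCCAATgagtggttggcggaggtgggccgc
PAK5, chr20:9839077-9839236, minus strand: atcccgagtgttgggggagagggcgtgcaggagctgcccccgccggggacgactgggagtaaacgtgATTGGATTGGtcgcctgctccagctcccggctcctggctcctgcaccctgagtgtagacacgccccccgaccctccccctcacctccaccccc
TRIB2, chr2:12716681-12716840, plus strand: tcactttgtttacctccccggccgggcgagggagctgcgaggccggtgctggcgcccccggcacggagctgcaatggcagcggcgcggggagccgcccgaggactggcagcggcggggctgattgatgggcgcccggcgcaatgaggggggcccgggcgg
ZBTB46, chr20:63831297-63831456, minus strand: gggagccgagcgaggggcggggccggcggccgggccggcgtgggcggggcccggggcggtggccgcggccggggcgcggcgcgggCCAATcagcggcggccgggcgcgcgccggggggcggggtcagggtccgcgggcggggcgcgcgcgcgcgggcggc
C12orf40, chr12:39626007-39626166, plus strand: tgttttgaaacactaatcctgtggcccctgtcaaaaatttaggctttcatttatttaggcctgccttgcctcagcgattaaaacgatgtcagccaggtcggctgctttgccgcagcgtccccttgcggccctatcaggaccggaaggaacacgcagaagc

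Of the 4 entering windows, those of KHDRBS2 and PAK5 held 2 CCAAT matches each, that of C6orf118 held 1 and that of TRIB2 held none. The leaving windows differed widely in base composition. ZBTB46 had 92.5% GC, 36 CpG sites and 1 CCAAT match, whereas C12orf40 had 51.88% GC, 8 CpG sites and no CCAAT match.

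The lists differed in length, and 1 of them was shorter than the threshold. On chromosomes 1 to 22 the 3 DMSO lists and SNDX-5613 replicates 1 and 2 held between 85767 and 110784 regions, and SNDX-5613 replicate 3 held 39452, so every region of that list counted as a top region. The 40000th region had a -log10 p of 19.21 to 25.06 in the 5 long lists, and the last region of the short list had 3.63. Read depth was not analysed here. Of the hepatocyte markers, ALB, APOA1, HNF4A and CYP3A4 had no promoter region in any list, SERPINA1 had one in 2 lists that was never a top region, and APOB and TTR had a top promoter region in 1 DMSO and 2 SNDX-5613 libraries each. The epithelial and mesenchymal markers KRT8, KRT18, EPCAM, CDH1, VIM, FN1, CDH2 and ZEB1 had a top promoter region in 6 of 6.

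The number of protein-coding genes with a top promoter region in each library is given as a description, since it counts the chosen members too. DMSO replicates 1 to 3 had 12561, 12516 and 12551 such genes, and SNDX-5613 replicates 1 to 3 had 12697, 12772 and 12642. The groups did not overlap, with means of 12542.7 ± 23.63 (SD, n = 3) and 12703.7 ± 65.26 (SD, n = 3), a difference of 161.0 genes. By construction the 75 entering and 12 leaving genes make up 63 of this difference, so no test is given. When regions of any rank were counted, the means were 14326.0 ± 253.3 and 14045.0 ± 1216 (SD, n = 3 each), and the short list was the lowest at 12642.

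Across all genes, 11846 had a top promoter region in 6 of 6 libraries and 5664 in 0 of 6. The 1601 genes between these had one in 1 to 5 libraries, and the entering genes were 4.68% and the leaving genes 0.75% of them. A further 113 genes were in 2 SNDX-5613 and no DMSO libraries, and 41 were in 2 DMSO and no SNDX-5613 libraries. SNDX-5613 replicate 3 was the only library to miss 288 genes and the only one to hold 312, against 17 to 37 and 28 to 57 for each of the others.

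Most entering promoters already had a called region in DMSO, further down the lists. In 68 of 75 genes each DMSO list held a promoter region below the top 40000, and 213 of the 225 pairs of an entering gene and a DMSO list had one. The median rank of these regions was 51280, 52293 and 53484 in DMSO replicates 1 to 3. In SNDX-5613 replicates 1 and 2 the median rank was 31314 and 31702, and it was 25139 in the shorter list of replicate 3. The DMSO region was not always the same site. In 64 of 75 genes, counting KHDRBS2 with no DMSO region, each DMSO region overlapped the strongest region of the long SNDX-5613 lists. In ARC no DMSO region did. The members with no region in 1 or more DMSO lists were C6orf118, KHDRBS2, PAK5, TRIB2, KIAA0040, SH3RF3 and HBQ1, and KHDRBS2 alone had none in all 3.

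**Figure D1:**
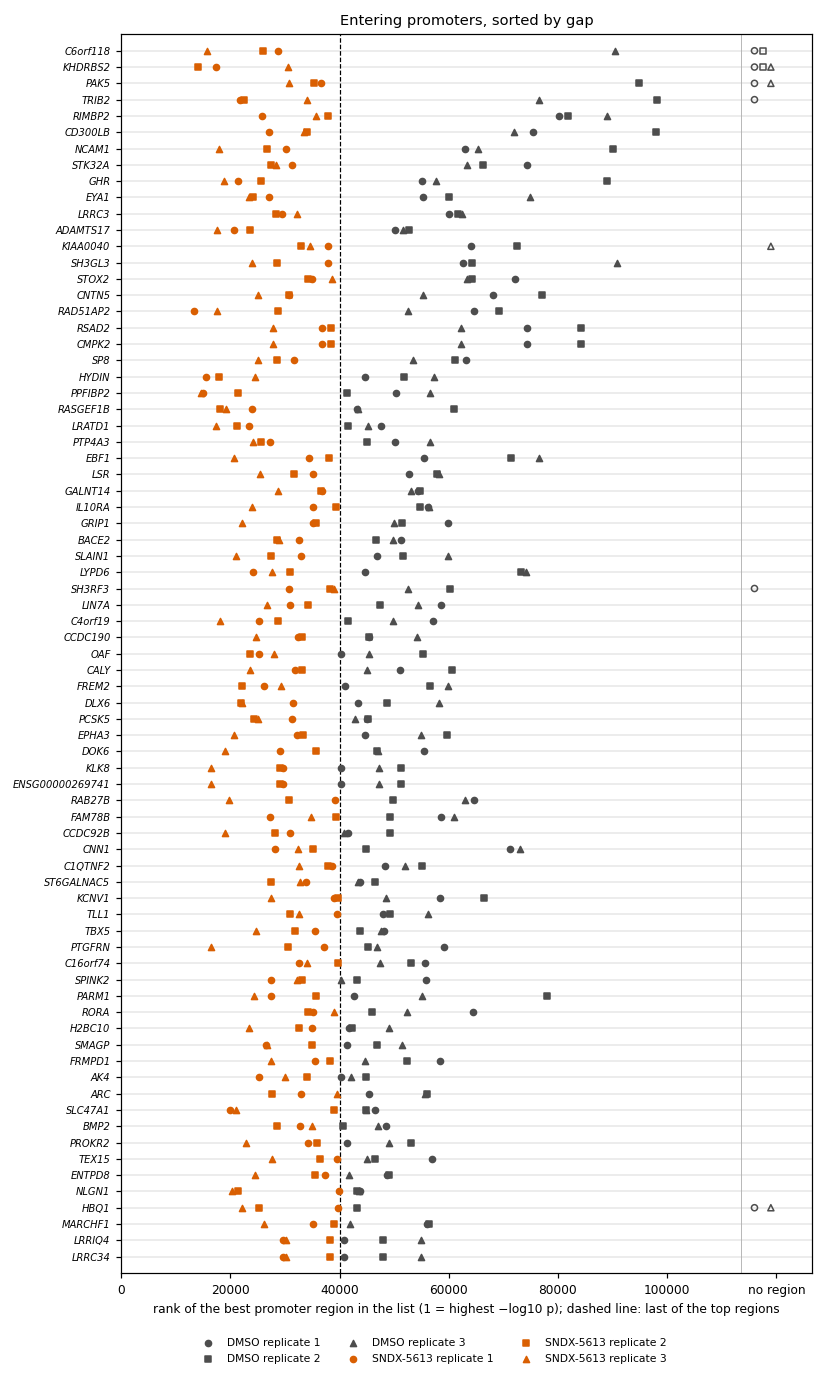
Rank of the best promoter region of each of the 75 entering genes (rows, sorted by gap) in the 6 libraries. Points left of the dashed line at 40000 are top regions. Open symbols at the right mark lists with no promoter region. All SNDX-5613 points lie left of the line, and the DMSO points spread from just past it to the end of the lists.

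The distance of a gene from the threshold was measured as a gap, the number of ranks between its worst rank in the 3 libraries that hold it and its best rank in the long lists of the other group. A gene with no region was placed after the last region of that list, so such gaps depend on the length of the list. For entering genes the gap ran from 2594 to 57113 ranks, with a median of 12234, and it was at least 10000 for 47 of 75. The best DMSO rank lay within 1000 ranks of the threshold for 9 genes and within 5000 for 33. The worst SNDX-5613 rank lay within 5000 ranks of it for 37.

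These distances were set beside the spread of ranks between libraries. For 204 genes that ranked between 30000 and 50000 in all 5 long lists, the median difference in rank between 2 libraries was 4071 to 5310, for pairs within a group and between groups alike. That window leaves out genes whose ranks moved further, so it holds this difference down. Among entering genes the median difference was 20612 to 22746 between a DMSO and a long SNDX-5613 list, which the selection itself sets apart. It was 6844 to 7914 between DMSO lists and 3709 between SNDX-5613 replicates 1 and 2. The rule shapes these values too. It keeps the SNDX-5613 ranks of entering genes inside the threshold, while their DMSO ranks can run to the end of the lists. The smaller difference between the SNDX-5613 lists therefore does not show that these libraries were more alike. At least one side of the threshold was closer than 4000 ranks for 49 of 75 entering and 10 of 12 leaving genes. With a band of ranks from 36000 to 44000 left empty, 26 entering and 2 leaving genes remained.

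**Figure D2:**
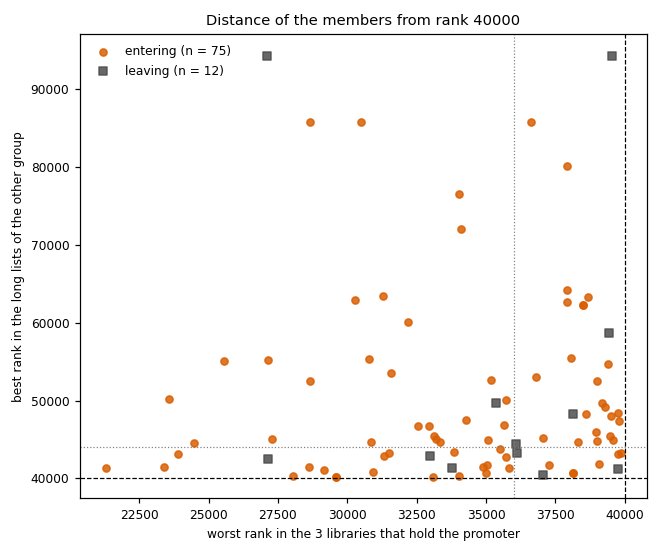
Worst rank in the 3 libraries that hold a promoter (horizontal) against its best rank in the long lists of the other group (vertical), for 75 entering and 12 leaving genes. Dashed lines mark rank 40000 and dotted lines ranks 36000 and 44000. The 26 entering and 2 leaving genes at the upper left of the dotted lines lie outside the band, and every other gene lies inside it on at least 1 side.

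The 26 entering genes outside that band were C6orf118, KHDRBS2, TRIB2, CD300LB, NCAM1, STK32A, GHR, EYA1, LRRC3, ADAMTS17, CNTN5, RAD51AP2, SP8, HYDIN, PTP4A3, LSR, GRIP1, BACE2, SLAIN1, LYPD6, LIN7A, CCDC190, CALY, EPHA3, DOK6 and CNN1. The leaving genes outside it were ZBTB46 and SYTL3.

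The entering genes with the widest gaps are described first. C6orf118, a gene of little known function, had its region at chr6:165309186-165309732 over a TSS. It ranked 28655, 25899 and 15701 in SNDX-5613 replicates 1 to 3, had no region in DMSO replicates 1 and 2 and ranked 90490 in DMSO replicate 3. Its -log10 p was 34.28, 36.14 and 12.73 in SNDX-5613 and 3.88 in the DMSO list that held it.

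KHDRBS2 encodes an RNA-binding protein of the Sam68 family that regulates splicing. Its region (chr6:62286039-62286408) ranked 17372, 14078 and 30493 in SNDX-5613, with -log10 p of 58.29, 67.5 and 5.75. No DMSO list held a promoter region, while the deposited DMSO consensus set did hold one there. Absence from a list here means only that no region was called.

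PAK5 encodes a p21-activated kinase, a class of effectors of RAC and CDC42. Its region (chr20:9838804-9839327) ranked 36626, 35303 and 30726 in SNDX-5613, and DMSO replicate 2 alone held one, at rank 94880. The SNDX-5613 values were within 5000 ranks of the threshold in replicates 1 and 2, so PAK5 entered with a wide gap but not with a high rank. Among 24 genes of RAC1 and PAK signalling, PAK5 was the single member of either group, and 18 had a top promoter region in 6 of 6 libraries.

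TRIB2, a pseudokinase that acts as a scaffold for ubiquitin ligases, ranked 21813, 22418 and 34040 in SNDX-5613. DMSO replicates 2 and 3 ranked it at 98231 and 76467, and DMSO replicate 1 held no region. STK32A, a serine/threonine kinase, ranked 31275, 27452 and 28436 in SNDX-5613 and 74414, 66263 and 63410 in DMSO. The STK32A ranks of the 2 groups did not overlap, as the rule requires.

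RIMBP2 links calcium channels to the active zone of synapses. It ranked 25793, 37910 and 35705 in SNDX-5613 and 80120, 81921 and 89037 in DMSO. The replicate 3 region of SNDX-5613 did not overlap the others, so the 3 libraries did not hold 1 common site for this gene. The DMSO replicate 1 region (chr12:130715310-130715474) also lay away from the strongest SNDX-5613 region (chr12:130506910-130507140). Its rank of 80120 was the best in DMSO, so the gap of RIMBP2 compares different sites. RIMBP2 and C6orf118 were the 2 entering genes with a region in the SNDX-5613 consensus set alone. The other 73 were in both consensus sets.

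NCAM1, a neural cell adhesion molecule, ranked 30264, 26685 and 17836 in SNDX-5613 and 62904, 90014 and 65337 in DMSO. Other entering genes with known roles in neuronal adhesion, guidance or synapses were CNTN5, NLGN1, EPHA3, GRIP1, LIN7A, CALY, ARC, LYPD6 and KCNV1. With RIMBP2 and NCAM1 these made 11 genes, with gaps of 3392 to 42210 ranks. This grouping and those that follow were made after the members were known and carry no test. Their share over all genes was not computed, so the count of 11 shows no excess of such genes. Among gene families counted over all genes, 1 of 180 ion channels and 1 of 74 semaphorins, plexins and ephrins entered. None of 99 neurotransmitter receptors or 97 cadherins and protocadherins did, beside 0.392% of all genes.

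The cell-surface receptors were GHR, CD300LB, IL10RA, PROKR2 and LSR. GHR, the growth hormone receptor, ranked 21396, 25549 and 18878 in SNDX-5613 and 55041, 89032 and 57636 in DMSO. Its region (chr5:42423343-42423774) covered a TSS, and all 3 SNDX-5613 ranks were far inside the top 40000. CD300LB, an activating receptor of myeloid cells, ranked 27086, 34097 and 33566 in SNDX-5613 and 75419, 97961 and 72000 in DMSO. Its region lay 693 bp from the nearest TSS of CD300LB and closer to that of another annotated transcript, ENSG00000289070, so the call cannot be tied to CD300LB alone.

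Of 7 transcription factors and cofactors, EYA1 had the widest gap. EYA1, a transcriptional coactivator with phosphatase activity, ranked 27127, 24203 and 23328 in SNDX-5613 and 55264, 60106 and 74968 in DMSO. SP8, a zinc finger factor of limb and brain development, ranked 31584, 28559 and 24998 in SNDX-5613 and 63238, 61157 and 53484 in DMSO. SP8 was the single entering gene among 25 KLF and SP factors, of which 18 had a top promoter region in 6 of 6 libraries. TBX5, DLX6, EBF1, RORA and STOX2 completed the 7, with gaps of 6936 to 24659.

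Secreted factors, matrix proteins and proteases gave 10 entering genes. ADAMTS17, a secreted metalloprotease, ranked 20699, 23586 and 17586 in SNDX-5613 and 50183, 52726 and 51685 in DMSO. BMP2, a ligand of the bone morphogenetic protein pathway, lay much closer to the threshold. It ranked 32829, 28486 and 34987 in SNDX-5613 and 48577, 40704 and 46991 in DMSO, and the DMSO replicate 2 rank was 704 past the threshold. BMP2 was the single entering gene among 26 TGF-beta and BMP ligands, of which 12 had a top promoter region in 6 of 6. TLL1, a protease of the BMP1 family, PCSK5, a proprotein convertase, and BACE2, an aspartyl protease, were also in this set.

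RSAD2 and CMPK2 are neighbouring genes induced by interferon. RSAD2 encodes viperin, which makes an antiviral nucleotide, and CMPK2 a mitochondrial nucleotide kinase. They share 1 region (chr2:6865343-6866351), so they are 2 members but 1 measurement. It ranked 36864, 38488 and 27855 in SNDX-5613 and 74378, 84274 and 62285 in DMSO. Among 31 IRF factors and interferon response genes on a fixed list, RSAD2 was the single entering gene, and 17 had a top promoter region in 6 of 6. LRRC34 and LRRIQ4 shared a region in the same way, as did KLK8 and ENSG00000269741, so the 75 genes stand for 72 distinct regions.

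LRRC3, a leucine-rich repeat protein, ranked 29478, 28428 and 32193 in SNDX-5613 and 60065, 61638 and 62372 in DMSO. The libraries of each group lay close together, and the region was closer to the start of LRRC3-DT, a divergent transcript. Among genes with several near-identical copies or paralogs in the genome, HYDIN, H2BC10 and HBQ1 entered, and reads could be split between copies there.

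The narrowest gaps were those of MARCHF1, LRRC34 and LRRIQ4. MARCHF1, a membrane-bound ubiquitin ligase, ranked 35082, 39055 and 26180 in SNDX-5613 and 55956, 56291 and 41879 in DMSO. LRRC34 and LRRIQ4 shared ranks of 29610, 38151 and 30154 in SNDX-5613 and 40745, 47934 and 54977 in DMSO. Their region lay 843 and 770 bp from the nearest start of each. On a single side, other members were closer to the threshold, and they were picked after their values were seen. NLGN1, a synaptic adhesion protein, ranked 39865 in SNDX-5613 replicate 1. SPINK2, a protease inhibitor, ranked 40190 in DMSO replicate 3.

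Just outside were genes in 3 of 3 SNDX-5613 libraries that 1 DMSO library also placed in the top 40000. MCOLN3, an endolysosomal cation channel, ranked 43613, 43044 and 39788 in DMSO and was left out by 212 ranks. TLR5, the receptor of bacterial flagellin, ranked 39717, 42259 and 47753 in DMSO and 20065, 20120 and 23384 in SNDX-5613. CNTNAP2, a neurexin family protein, ranked 45593, 48796 and 39711 in DMSO and 33723, 33652 and 20951 in SNDX-5613. RUNX3, a transcription factor on the list of genes fixed by name, was also outside, with ranks of 41707, 40420 and 34808 in DMSO and 22575, 15654 and 17820 in SNDX-5613.

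The fold enrichment over local background, a second value in the lists, is given for the same regions. It is not independent of the ranks, and its value at the threshold differed between lists, from 7.71 to 10.46 in the long ones. The median fold over entering members was 6.68, 7.52 and 6.56 in DMSO replicates 1 to 3 and 10.04, 9.2 and 5.56 in SNDX-5613 replicates 1 to 3. In 55 of 75 genes the fold in both long SNDX-5613 lists was above that in every DMSO list with a region. In SNDX-5613 replicate 3 the -log10 p of members ran from 3.63 to 13.55, and 22 of 75 ranked past 30000 there. Its median of 7.77 was below the medians of 12.7, 16.61 and 13.12 in DMSO replicates 1 to 3, over members with a region. Entry in that library thus means a called region and not a higher -log10 p than in DMSO. ARC, an immediate early gene of neurons, ranked 39451 of the 39452 regions of that list.

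The leaving group was small. Its gap ran from 1473 to 67203 ranks with a median of 10018. All 12 genes were without a promoter region in the short list of SNDX-5613 replicate 3, so for this library leaving means not called at all. In replicates 1 and 2, 9 of 12 genes had a region below the top 40000 in both lists.

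**Figure D3:**
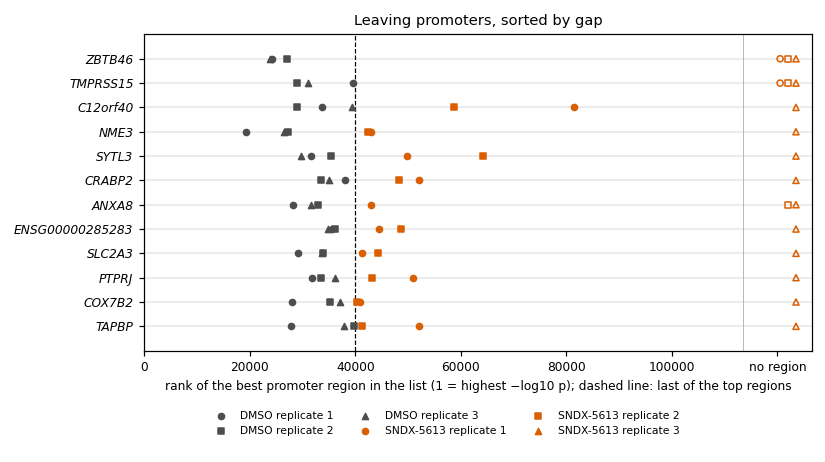
Rank of the best promoter region of each of the 12 leaving genes (rows, sorted by gap) in the 6 libraries. Points left of the dashed line at 40000 are top regions and open symbols mark lists with no promoter region. ZBTB46 and TMPRSS15 have no region in any SNDX-5613 list, and COX7B2 and TAPBP lie close to the line on both sides.

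ZBTB46, a zinc finger factor known from classical dendritic cells, had the widest gap. Its region (chr20:63831276-63831442) ranked 24166, 27110 and 23793 in DMSO, with -log10 p of 36.25, 41.4 and 42.44, and no SNDX-5613 list held one. The 3 DMSO libraries were close to each other. TMPRSS15, the intestinal protease enteropeptidase, ranked 39542, 29041 and 31075 in DMSO and also had no region in SNDX-5613. Its DMSO replicate 1 rank was 458 inside the threshold. These were the 2 leaving genes with a region in the DMSO consensus set alone.

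C12orf40, a gene with a role in meiosis, ranked 33777, 28923 and 39423 in DMSO and 81409 and 58619 in SNDX-5613 replicates 1 and 2. SYTL3, a synaptotagmin-like protein of vesicle traffic, ranked 31659, 35347 and 29699 in DMSO and 49714 and 64120 in those libraries. NME3, a nucleoside diphosphate kinase, ranked 19307, 27159 and 26577 in DMSO and 43059 and 42499 in SNDX-5613. NME3 thus held high ranks in DMSO, and in SNDX-5613 it stayed within 4000 ranks of the threshold.

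CRABP2, a retinoic acid-binding protein, ranked 38129, 33410 and 34992 in DMSO and 52021 and 48266 in SNDX-5613 replicates 1 and 2. ANXA8, an annexin in a region with near-identical copies, ranked 28209, 32986 and 31574 in DMSO, 42884 in SNDX-5613 replicate 1 and was absent from replicate 2. The SNDX-5613 replicate 1 region overlapped none of the DMSO regions, so this rank is that of another site. ENSG00000285283 ranked 35645, 36096 and 34819 in DMSO and 44419 and 48676 in SNDX-5613. Its region lay 895 bp from its own start and nearest to a start of PAX6, a homeobox factor, so the call may belong to either.

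SLC2A3, a glucose transporter, ranked 29092, 33788 and 33608 in DMSO and 41317 and 44306 in SNDX-5613 replicates 1 and 2. PTPRJ, a receptor tyrosine phosphatase, ranked 31864, 33535 and 36103 in DMSO and 50896 and 43209 in SNDX-5613. COX7B2, a testis form of a cytochrome c oxidase subunit, ranked 27940, 35119 and 37062 in DMSO and 40820 and 40411 in SNDX-5613. TAPBP, or tapasin, which loads peptides onto class I molecules, had the narrowest gap, with 27882, 39759 and 37793 in DMSO and 51995 and 41232 in SNDX-5613. For COX7B2 and TAPBP the gap was below 4071 to 5310 ranks, the median difference between 2 libraries for the 204 genes near the threshold. The choice of those genes held that difference down, so wider gaps can also lie within the spread between libraries.

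Just outside the leaving group were TYRP1, TSPAN1 and ADORA2A, each with a top region in 1 SNDX-5613 library, at ranks of 39069, 39036 and 38385. All 3 were without a region in SNDX-5613 replicate 3, as the leaving genes were.

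A gene was ranked by its best promoter region, which could be another site in another library. The regions of the 3 libraries that hold a gene overlapped the same site for 68 of 75 entering and 10 of 12 leaving genes, CRABP2 and TAPBP being the leaving exceptions. The regions of entering genes mostly covered a TSS. A TSS lay inside the region in 58 of 75 entering and 7 of 12 leaving genes, and the start nearest to the summit belonged to the gene itself in 66 and 11. The median width was 506 bp for entering and 317 bp for leaving regions, beside 395.5 bp for the 204 genes near the threshold and 775 bp for genes in 6 of 6 libraries. In 10 entering genes a DMSO library had a top region within 3 kb although none within 1 kb, and LSR, CCDC190 and CNN1 had one in all 3. Among the leaving genes 5 had one in an SNDX-5613 library, namely NME3 and SLC2A3 in all 3 and ZBTB46, ANXA8 and ENSG00000285283 in 2. For these genes the outcome rested on the distance to the TSS that was allowed.

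Base composition was taken from 300 bases around the canonical start, 250 before it and 50 after it, for 19110 of 19111 genes. The rule did not use these sequences, and their values are set beside those of other groups without a test. The median GC content was 65.0% for entering, 58.0% for leaving, 65.67% for the 204 genes near the threshold and 66.33% for genes in 6 of 6. The median observed to expected CpG ratio was 0.7708 for entering and 0.5699 for leaving genes, beside 0.696 near the threshold, 0.8598 in 6 of 6 and 0.3143 in 0 of 6. By this median, entering promoters lay between the promoters in every library and those in none and close to the 0.78 of all genes, and the 12 leaving promoters were poorer in CpG.

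A CCAAT box on either strand was present in the start window of 32 of 75 entering genes (42.67%) and 3 of 12 leaving genes. The share was 22.06% in the genes near the threshold, 37.48% in 6 of 6, 34.43% in 0 of 6 and 35.75% over all genes. In 301 bases around the strongest summit the count was again 32 of 75 for entering and 3 of 12 for leaving genes, beside 51 of the 204 near the threshold and 36.62% over all genes with a region. The genes of NF-Y itself, NFYA, NFYB and NFYC, had a top promoter region in 6 of 6 libraries, as had MEN1, KMT2A, MYC and SNAI2.

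**Figure D4:**
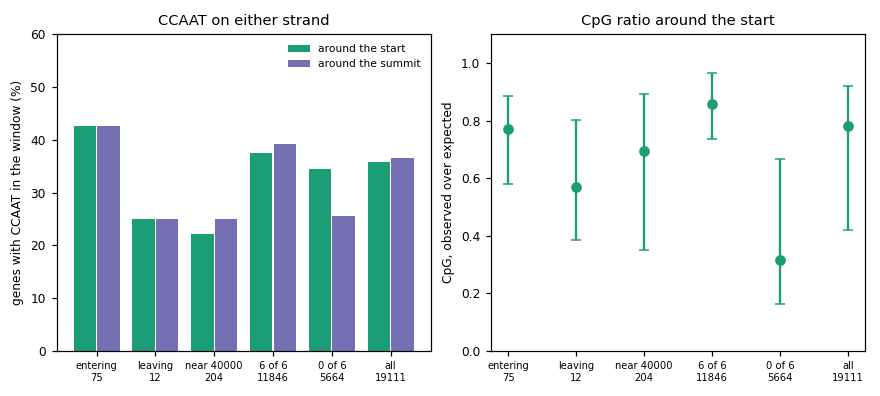
Left, percent of genes with CCAAT on either strand in the 300 bases around the start and the 301 bases around the summit (summit shares are over genes with a region). Right, median and quartiles of the observed to expected CpG ratio around the start. Groups are entering, leaving, genes near rank 40000, genes with a top promoter region in 6 of 6 and in 0 of 6 libraries, and all. Around the start, the entering share was 42.67%, beside 35.75% of all genes, 37.48% in 6 of 6, 34.43% in 0 of 6 and 22.06% near rank 40000. These differences were not tested.

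Other motifs were counted in the same start windows, on both strands. GGGCGG, the core of the SP box, was in 73.33% of entering promoters, 6 of 12 leaving ones, 61.27% of those near the threshold and 74.72% of those in 6 of 6 libraries. TATAAA was in 5.333% of entering promoters (4 of 75) and in 3 of 12 leaving ones, TMPRSS15, CRABP2 and SLC2A3, beside 9.744% of all. CATTCC, a core bound by TEAD factors, was in 8.0% of entering and 11.27% of all promoters, and AGATAA, bound by GATA factors, in 6.667% and 7.174%. CACGTG, an E-box, was in 10.67% of entering and 8.687% of all, and TGACGTCA, bound by CREB, in 2.667% and 2.721%. A match is only a run of letters and not a bound site.

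Neither group was drawn from a single chromosome or family. The entering genes lay on 20 of the 22 chromosomes, with 8 on chromosome 2, 7 on chromosome 4 and 6 on chromosome 1, and the leaving genes lay on 9. Of 44 gene lists, 21 by name and 23 by family, 10 entering genes (13.33%) and 2 leaving genes (16.67%) belonged to any, beside 17.89% of all genes. No list held more than 1 entering gene. The 18 measured genes of the menin-MLL and COMPASS complexes and the 22 of the Polycomb complexes all had a top promoter region in 6 of 6 libraries. Of 32 EMT and mesenchymal genes 24 were in 6 of 6 and none was a member, and of 33 hepatocyte factors and products 8 were in 6 of 6 and none was a member.

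The size of the groups under other settings was recomputed. Between 61 and 84 genes entered, and between 9 and 17 left, when the number of regions, the ranking value, the distance or the set of starts was changed. With 30000 regions 15 of 74 entering genes were also among the 75, and with 38000 regions 53 of 65 were. Ranked by fold enrichment, 29 of 61 entering genes and 3 of 11 leaving genes were shared with the groups described here. The size was thus more alike between settings than the genes were. ADAMTS17, C6orf118, GHR, PTP4A3 and RAD51AP2 entered in each of the 21 alternatives, of which the 6 without 1 library cannot lose a member. Ranking by -log10 q and merging overlapping regions also changed no member. No leaving gene left in all 21 alternatives.

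**Figure D5:**
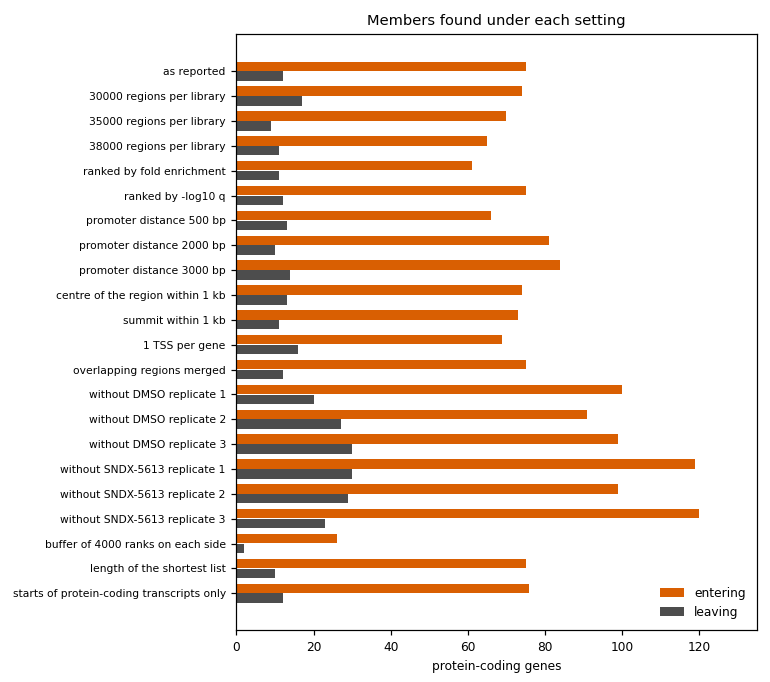
Number of entering and leaving protein-coding genes (bars) under each setting. The first pair of bars, 75 and 12, is the result described here. Settings without 1 library ask for fewer libraries and so can only add genes, and the empty band of 4000 ranks on each side leaves 26 and 2.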

How the data were processed

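ATAC-seq peak lists of HLF cells (3 DMSO, 3 SNDX-5613 libraries) were analysed. Per the labels, the build was hg38, and the submitters' processing notes name Trim Galore 0.6.7, Bowtie2 2.3.4.1, Picard 2.20.0, SAMtools, deepTools 3.5.4 and MACS2. Peaks were called per library. The deposited lists give per summit the authors' fold enrichment (ratio over local background), -log10 p and -log10 q. The consensus sets (RMSPC in the study's methods) were used for regions only. A Tn5 shift and duplicate removal were not given in the sources used here, and depth was not analysed, so precision rests on 3 libraries per group.

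Rows with equal coordinates were collapsed to the highest -log10 p and ranked. Regions were matched to GENCODE release 44 starts with Python 3.11.15, pandas 2.3.3, numpy 2.4.6 and scipy 1.17.1, tested on simulated data. The members and gene lists were chosen with earlier results of these data known. Named genes were, per group, the 12 widest and 3 narrowest gaps, the 3 genes just outside, members of lists of at most 60 genes and 8 genes fixed by name, and others are named as sets. ENSG identifiers are given where no symbol exists. The canonical start was used for base composition. No p-value is given for the members, since the values compared are those that chose them. A planned permutation test of the number of genes per library is left out, since that number counts the members. Sequence features and chromosome X were not used by the rule and are described without a test. A further sequence window is not reported here. Alternatives are given in the closing section.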

Additional observations from a re-analysis of the deposited data

Results flagged for a closer look

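Chromosome X lay outside the ranking and was examined with the -log10 p at which each list ended its top regions on chromosomes 1 to 22. Among 859 protein-coding genes of chromosome X, 5 promoters (0.582%) were past that value in every SNDX-5613 library and in no DMSO library, and 1 (0.116%) showed the reverse, beside 0.392% and 0.0628% on chromosomes 1 to 22. They are given because the comparisons above did not use this chromosome, and the difference between these shares was not tested.

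PAK3, which like PAK5 encodes a p21-activated kinase, had a -log10 p of 10.99, 8.97 and 11.8 in DMSO and 38.75, 50.31 and 11.18 in SNDX-5613. EDA, ectodysplasin A, had 6.97, 8.82 and 15.78 in DMSO and 57.71, 57.82 and 9.05 in SNDX-5613. MBNL3 and RTL5 were also among the entering genes, and MAGEB10 was the leaving one, with 30.69, 27.21 and 32.82 in DMSO, 21.47 and 17.69 in SNDX-5613 replicates 1 and 2 and no region in replicate 3. In SNDX-5613 replicate 3, whose list ended at a -log10 p of 3.63, the entering genes had 6.13 to 19.51, below the 20.29 and 22.2 at rank 40000 of the other SNDX-5613 lists.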

How the results depend on the processing

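Of the 21 alternatives to each count, the entering count was within 1.5 times of 75 in 18 and the leaving count within 1.5 times of 12 in 14. Leaving out 1 library gave 91 to 120 entering and 20 to 30 leaving genes, each holding all 75 and all 12, since the rule then asks for fewer libraries. The entering count was 119 without SNDX-5613 replicate 1 and 120 without SNDX-5613 replicate 3. The leaving count was 20, 27 and 30 without DMSO replicates 1 to 3 and 30, 29 and 23 without SNDX-5613 replicates 1 to 3. With the empty band of 4000 ranks on each side the counts were 26 and 2. NLGN1, ranked by fold enrichment, reversed, with a share of SNDX-5613 minus DMSO libraries of -0.333, and the cause was not tested. Ranking by -log10 q and merging overlapping regions returned the same 75 and 12 genes. These 2 settings left the calls unchanged, so they are no check on the counts, although they are among the 21. Using the length of the shortest list (75 and 10) and protein-coding transcripts only (76 and 12) was chosen after seeing the data.

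The difference of 161.0 genes with a top promoter region kept its sign in all 21 alternatives, and leaving out a library gave 126.8 to 191.8. For this difference the replicate block stands in place of the empty band. With the replicate number as a block, the mean difference within pairs is 161.0 by arithmetic. Ranking by -log10 q and merging regions also returned 161.0, so none of these settings could change the sign. The difference counts the chosen members too. The methods of the study describe each replicate as a divided dish, so the numbers may pair the libraries. Over 12449 genes, the deviations of same-numbered libraries from their group means correlated at 0.007, -0.019 and -0.037. Libraries with other numbers correlated at -0.058 to 0.086. These values cannot settle whether dishes were shared, since the 3 deviations in a group depend on each other. No paired analysis was possible for the counts of members because they come from no test. The short list limits what replicate 3 of SNDX-5613 can show, and regions below the calling limit of a list have no value.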
